A study of Arabidopsis thaliana with 6 samples.

Results

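Thylakoid photoprotection was followed through 8 genes of Arabidopsis thaliana, taken by locus from a table of 32834 loci. They were the early light-induced proteins ELIP1 (AT3G22840) and ELIP2 (AT4G14690), the one-helix proteins OHP1 (AT5G02120) and OHP2 (AT1G34000), the LIL3 proteins LIL3:1 (AT4G17600) and LIL3:2 (AT5G47110), the quenching protein PSBS (AT1G44575), and violaxanthin de-epoxidase (VDE), encoded by NPQ1 (AT1G08550). All 8 had enough counts to be tested, among 20438 tested loci. The rule that names them uses what the genes encode and no measured value, although they were chosen with earlier results of these data known.

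Plants absorb more light than they can use when photosynthesis is limited, and several proteins of the light-harvesting complex (LHC) superfamily then protect the thylakoid membrane. ELIPs are chlorophyll-binding proteins that accumulate briefly during greening and high light, while OHPs bind pigments during the assembly of photosystem II and LIL3 proteins anchor enzymes of chlorophyll synthesis to the membrane. PSBS senses the acidity of the thylakoid lumen and switches on the fast part of non-photochemical quenching, the release of excess excitation as heat. VDE converts violaxanthin to zeaxanthin, a carotenoid that takes part in this quenching.

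Poly(A) RNA was sequenced from whole seedlings of accession Col-0 at 7 days of age, in 6 libraries of 3 groups with 2 libraries each. MIF_1 and MIF_3 seedlings held the construct pTA7002-Dexp:Myc-MIF, which encodes Myc-tagged MIF in a vector where dexamethasone turns on the inserted gene, and WT seedlings were labelled wild type. All 3 groups, WT included, grew on 10 µM dexamethasone and 1% sucrose under 120 µmol m-2 s-1 of light for 16 h a day, after 3 days of cold in the dark. No library of vector-only seedlings or of seedlings without dexamethasone was used here, so an effect of the vector cannot be told apart from one of MIF. What the numbers 1 and 3 of the sets stand for, and whether replicates were separate cultures, is not given, so a p-value here measures only how these samples spread, which may be technical. The locus of MIF is not given either, and its transcript was not analysed here. MIF_1 and MIF_3 were compared with the same WT libraries, so their changes against WT are not independent of each other.

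Library totals were 22403469 and 22827857 counts in MIF_1, 24175475 and 24698636 in MIF_3, and 21404582 and 18262579 in WT. WT replicate 2 stood apart, with 0.132% of its counts on plastid-encoded loci and 1.04% on nuclear rRNA loci, against 0.0203% to 0.0273% and 0.298% to 0.468% in the 5 other libraries. Root markers were present in all groups (14 of 14 tested, none at 0). Levels are given in CPM, counts per 1e+06 of a library size that was scaled as described below. The summed level of the markers was 2249.81 to 2478 CPM in MIF_1, 1840.32 to 2107.6 in MIF_3 and 2178.24 to 2386.42 in WT. Most of this is 1 gene, PYK10, at 2034 and 2265 CPM in MIF_1, 1586 and 1883 CPM in MIF_3, and 2164 and 2008 CPM in WT. The LHCA and LHCB antenna genes, markers of green tissue (20 of 21 tested, the other one at 0 in all libraries), summed to 34947 to 38850 CPM in MIF_1, 41613 to 60498 in MIF_3 and 73885 to 77108 in WT. In these bulk samples, fewer cells of a type and less RNA per cell cannot be told apart, and the part of these shifts in the results on the 8 genes was not tested.

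The sequence just before the start of the gene is shown for both ELIP genes, whose transcript levels changed most, and for OHP1, the one other member with a G-box. Each is the 250 bases before the annotated gene start in the TAIR10.1 assembly, credited to RefSeq, 5′ to 3′ on the strand of the gene, and capitals mark the searched motifs that a script found. ELIP1 lies on chromosome 3 on the minus strand (chr3:8085670-8085919), ELIP2 on chromosome 4 on the plus strand (chr4:8417992-8418241) and OHP1 on chromosome 5 on the plus strand (chr5:418841-419090).
ELIP1: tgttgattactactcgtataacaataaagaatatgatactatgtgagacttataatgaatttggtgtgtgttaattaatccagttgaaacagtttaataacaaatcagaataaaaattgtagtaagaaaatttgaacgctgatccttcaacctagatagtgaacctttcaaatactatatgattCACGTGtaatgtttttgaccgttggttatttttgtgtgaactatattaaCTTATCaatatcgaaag
ELIP2: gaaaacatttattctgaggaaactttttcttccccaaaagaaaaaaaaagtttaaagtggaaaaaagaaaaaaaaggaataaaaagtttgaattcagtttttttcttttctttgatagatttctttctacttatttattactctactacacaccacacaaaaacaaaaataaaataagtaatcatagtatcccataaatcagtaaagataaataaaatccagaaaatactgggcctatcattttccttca
OHP1: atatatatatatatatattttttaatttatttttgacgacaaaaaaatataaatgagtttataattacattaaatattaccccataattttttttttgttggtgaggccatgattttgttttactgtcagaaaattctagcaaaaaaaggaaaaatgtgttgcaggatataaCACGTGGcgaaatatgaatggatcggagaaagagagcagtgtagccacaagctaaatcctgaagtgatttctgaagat

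The motifs searched on both strands were the G-box CACGTG, the related sequence ACGTGG, the I-box GATAAG, the CCAAT-like sequence CCAATC and the evening element AAAATATC. ELIP1 held a G-box whose first base is 66 bases before the start, and an I-box, read on the other strand as CTTATC, at 17 bases. OHP1 held a G-box at 78 bases with an ACGTGG that overlaps it, and OHP2 held a CCAATC at 133 bases. No searched motif was in the windows of ELIP2, LIL3:1, LIL3:2, PSBS and NPQ1, where PSBS and NPQ1 have several annotated starts and the outermost was used. Among 27443 windows of the same length before protein-coding genes, 6.49% held CACGTG, 8.23% ACGTGG, 12.3% GATAAG, 10.2% CCAATC and 5.9% AAAATATC. ELIP1 and ELIP2 thus share no searched motif in these windows, while their transcripts had like profiles over the libraries. A match describes the letters alone.

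In MIF_1 against WT, 2 of the 8 genes rose and 3 fell (edgeR quasi-likelihood test, Benjamini-Hochberg adjusted over all tested genes, threshold 0.05), where 17.7% of all tested genes passed, 7.82% rising and 9.85% falling. In MIF_3 against WT, 2 rose and 1 fell, where 13.3% of all tested genes passed, 5.84% rising and 7.47% falling. The libraries did not overlap for 2 genes that were higher and 5 that were lower in MIF_1 than in WT, beside 30.5% and 28.9% of all tested genes. For MIF_3 these were 2 higher and 3 lower, beside 28.6% and 28.3%. The mean of MIF_1 and MIF_3 gave 2 that rose and 1 that fell, where 18.7% of all genes passed, 7.76% rising and 10.9% falling. The genes that rose were ELIP1 and ELIP2 in both sets. Those that fell were OHP2, LIL3:2 and PSBS in MIF_1, and LIL3:2 in MIF_3. The count of 5 in MIF_1 became 2 without MIF_1 replicate 1, and 3 without MIF_1 replicate 2, WT replicate 1 or WT replicate 2, while ELIP1 and ELIP2 passed in each of these. The median log2 fold change of the 8 was -0.31 in MIF_1 and -0.13 in MIF_3, beside 0.01 over all tested genes in each comparison.

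**Figure D1:**
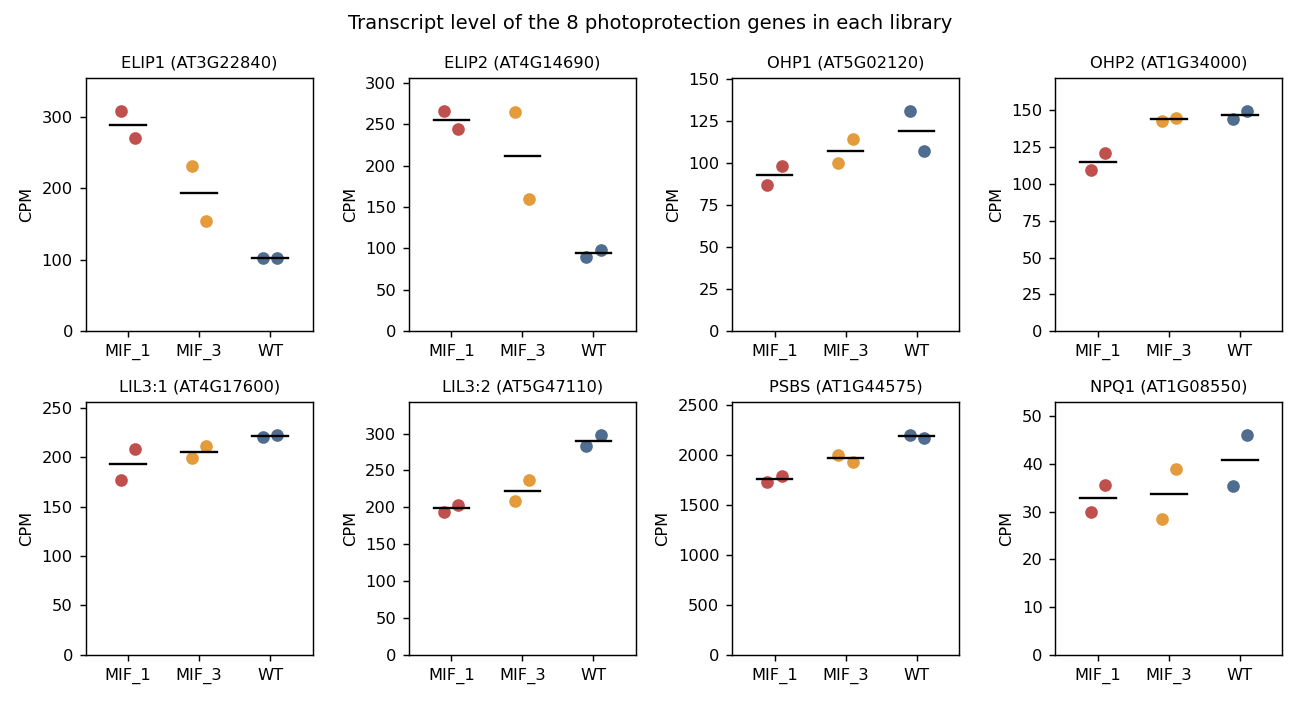
Transcript level (CPM, y axis from 0) of each of the 8 genes in MIF_1, MIF_3 and WT, with a point per library and a bar at the group mean. Both ELIP genes are higher in every MIF_1 and MIF_3 library than in WT, where ELIP1 has 103 and 102 CPM, and LIL3:2 and PSBS are lower in every MIF_1 and MIF_3 library.

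ELIP1 transcripts were more abundant in both MIF sets than in WT. ELIP1 had 307 and 269.7 CPM in the MIF_1 libraries, 231 and 155 CPM in the MIF_3 libraries, and 103 and 102 CPM in the WT libraries. Every MIF library lay above both WT libraries, and MIF_1 and MIF_3 did not overlap. In MIF_1 the rise was 2.81-fold, a log2 fold change of 1.49 ± 0.17 (SE, n = 2 against 2, edgeR adjusted p = 5.14e-04, 95% interval 1.12 to 1.87). In MIF_3 it was 1.88-fold, 0.91 ± 0.17 on the log2 scale (SE, n = 2 against 2, edgeR adjusted p = 0.00679, 95% interval 0.54 to 1.28). These changes stood at the 96.9 percentile of all tested genes in MIF_1 and at the 93.6 percentile in MIF_3. Without MIF_3 replicate 1, the higher library, the MIF_3 change was 0.59, in a fit that the spread within MIF_3 did not enter. Without WT replicate 2, the library that stood apart, ELIP1 was at 1.49 in MIF_1 (edgeR adjusted p = 0.00565) and at 0.90 in MIF_3 (adjusted p = 0.0424).

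ELIP2 moved like its paralog. Its level was 265.6 and 244 CPM in the MIF_1 libraries, 265.2 and 159 CPM in the MIF_3 libraries, and 89.9 and 98.7 CPM in the WT libraries. All 4 MIF libraries were higher than WT, and the ranges of MIF_1 and MIF_3 overlapped. ELIP2 rose 2.70-fold in MIF_1 (log2 1.43 ± 0.20 SE, n = 2 against 2, edgeR adjusted p = 0.00149, 95% interval 0.99 to 1.87) and 2.25-fold in MIF_3 (log2 1.17 ± 0.20 SE, edgeR adjusted p = 0.00437, 95% interval 0.73 to 1.61). The MIF_3 change was 0.76 without MIF_3 replicate 1, again in a fit that the spread within MIF_3 did not enter. Without WT replicate 2, ELIP2 was at 1.504 in MIF_1 (adjusted p = 0.00952) and at 1.24 in MIF_3 (adjusted p = 0.0229).

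The ratio of ELIP2 to ELIP1 counts stayed near 1 in all libraries, at 0.864 and 0.904 in MIF_1, 1.147 and 1.03 in MIF_3, and 0.873 and 0.968 in WT. It was above 1 in both MIF_3 libraries and below 1 in the 4 others. The coding sequences of the 2 genes, 588 and 582 bases long, had the same base at 445 of 564 aligned positions (78.9%), and the longest run that their transcripts share was 26 bases with no shared 100-mer. The treatment of multi-mapped reads is not stated, so a small exchange of reads between the paralogs cannot be told apart from expression. Neither ELIP gene overlaps another annotated locus.

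The ELIP transcripts were set beside those of the antenna proteins, the related chlorophyll-binding proteins that harvest light. ELIP1 and ELIP2 together had 573 and 514 CPM in MIF_1, 496 and 314 CPM in MIF_3, and 193 and 201 CPM in WT. Per 1000 CPM of LHCA and LHCB transcripts, that was 16.4 and 13.2 CPM in MIF_1, 11.9 and 5.19 CPM in MIF_3, and 2.61 and 2.604 CPM in WT. Of the 4 MIF libraries, MIF_3 replicate 2 had the lowest ELIP sum and the highest LHC sum (60498 CPM). In MIF_1, 19 of the 20 tested LHC genes fell (95%, beside 9.85% of all tested genes) and none rose. Their median log2 fold change was -1.01. In MIF_3, 13 fell (65%, beside 7.47%) and none rose, with a median of -0.54. With a library left out, the MIF_3 change ran from -0.78 to -0.41 for LHCA4, -0.96 to -0.52 for LHCB4.2 and -0.63 to -0.45 for LHCA6. The MIF_3 call was lost without WT replicate 1 for LHCA4 and LHCA6, and without WT replicate 2 for LHCA4 and LHCB4.2.

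**Figure D2:**
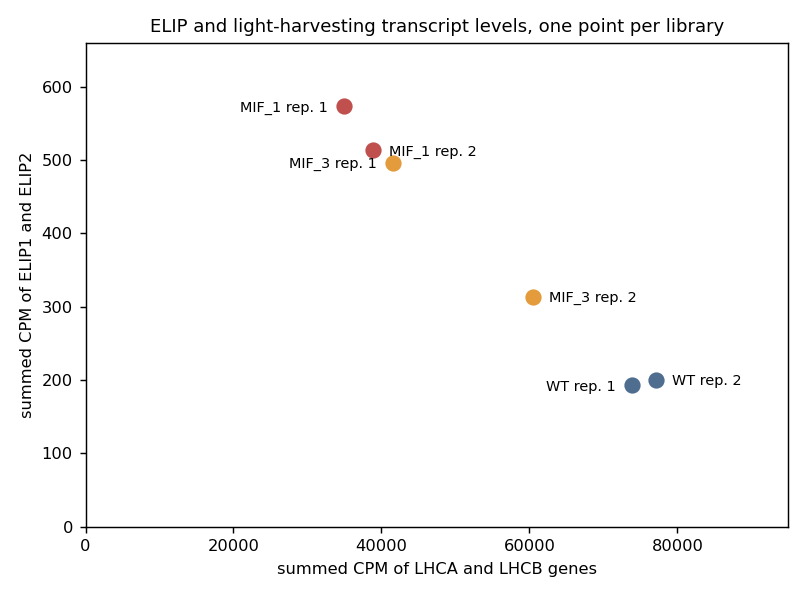
Summed CPM of ELIP1 and ELIP2 (y axis) against summed CPM of the LHCA and LHCB genes (x axis), a point per library, coloured by group. The MIF_1 libraries (573 and 514 CPM of ELIP transcripts) lie at the upper left, the WT libraries (193 and 201) at the lower right, and MIF_3 replicate 2 (314) between them.

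The one-helix proteins, which act with the assembly factor HCF244 in making photosystem II, showed small differences. OHP1 had 86.8 and 98.2 CPM in MIF_1, 100.04 and 114 CPM in MIF_3, and 130.5 and 107 CPM in WT. Both MIF_1 libraries were below WT, and MIF_3 overlapped WT. The log2 difference was -0.36 ± 0.13 (SE) in MIF_1 (edgeR adjusted p = 0.0821, 95% interval -0.64 to -0.07) and -0.15 ± 0.13 in MIF_3 (edgeR adjusted p = 0.504, interval -0.43 to 0.14), and neither passed the threshold. OHP2, the protein on which OHP1 depends for its stability, had 109 and 121 CPM in MIF_1, 143 and 145 CPM in MIF_3, and 144 and 149 CPM in WT. OHP2 fell by 0.35 ± 0.10 on the log2 scale in MIF_1 (SE, n = 2 against 2, edgeR adjusted p = 0.0354), where the libraries did not overlap, and was at -0.03 ± 0.10 in MIF_3 (adjusted p = 0.892, 95% interval -0.24 to 0.19), where they did. Its MIF_1 call was lost when any of the 4 MIF_1 and WT libraries was left out, with edgeR adjusted p of 0.110 and 0.156 without WT replicate 1 or 2 and 0.196 and 0.0804 without MIF_1 replicate 1 or 2, and it was also lost with upper-quartile scaling (0.0545).

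OHP1 shares 116 exonic bases with AT5G02130 on the opposite strand, and OHP2 shares 122 with AT1G33990 and 101 with AT1G06717. The strand setting of the counting is not given, so reads of these neighbours cannot be told apart from those of the OHP genes over the shared bases. AT1G06717 had at most 6 counts in any library. AT5G02130 was at 0.22 on the log2 scale in MIF_1 (adjusted p = 0.609) and AT1G33990 at 0.09 (adjusted p = 0.600).

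LIL3:2 was the one gene besides the ELIPs to pass in both sets. Its level was 194 and 204 CPM in MIF_1, 209 and 237 CPM in MIF_3, and 283 and 298 CPM in WT. All 4 MIF libraries lay below both WT libraries. LIL3:2 fell by 0.55 ± 0.10 on the log2 scale in MIF_1 (SE, n = 2 against 2, edgeR adjusted p = 0.00546), to 0.685 of WT, and by 0.38 ± 0.10 in MIF_3 (edgeR adjusted p = 0.0329), to 0.767 of WT. The MIF_1 call was lost without MIF_1 replicate 1 (adjusted p = 0.0615). The MIF_3 call was lost without any one of the libraries other than MIF_3 replicate 2, with edgeR adjusted p of 0.1002 and 0.164 without WT replicate 1 or 2, 0.0656 and 0.0661 without MIF_1 replicate 1 or 2, and 0.136 without MIF_3 replicate 1. It was also lost with upper-quartile scaling (0.0613).

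Its paralog LIL3:1 differed less. LIL3:1, which like LIL3:2 holds geranylgeranyl reductase and protochlorophyllide oxidoreductase at the membrane, had 177 and 209 CPM in MIF_1, 199.65 and 211 CPM in MIF_3, and 221 and 222 CPM in WT. Every MIF library was below WT, but the log2 difference of -0.20 ± 0.10 (SE) in MIF_1 (edgeR adjusted p = 0.227, 95% interval -0.44 to 0.03) and of -0.11 ± 0.10 in MIF_3 (adjusted p = 0.551, interval -0.34 to 0.12) did not pass. The ratio of LIL3:2 to LIL3:1 CPM was 1.097 and 0.977 in MIF_1, 1.05 and 1.12 in MIF_3, and 1.28 and 1.34 in WT, lower in each MIF library than in either WT library. The coding sequences of the pair were identical at 615 of 758 aligned bases, with 40 bases as the longest shared run. LIL3:1 shares 457 exonic bases with AT4G17610 on the opposite strand, which was at 0.35 on the log2 scale in MIF_1 (adjusted p = 0.171) and 0.13 in MIF_3 (adjusted p = 0.654), while LIL3:2 overlaps no locus.

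PSBS was the most abundant of the 8, at the 99.8 percentile of all tested genes in average level. It had 1726 and 1792 CPM in MIF_1, 1999 and 1932 CPM in MIF_3, and 2199 and 2171 CPM in WT. The 3 groups did not overlap, with MIF_1 lowest and WT highest. PSBS fell by 0.31 ± 0.08 on the log2 scale in MIF_1 (SE, n = 2 against 2, edgeR adjusted p = 0.0319), to 0.805 of WT, and its difference of -0.15 ± 0.08 in MIF_3 did not pass (adjusted p = 0.284, 95% interval -0.34 to 0.04). Over both sets together the difference was -0.23 ± 0.07, just outside the threshold (edgeR adjusted p = 0.0520). The MIF_1 call was lost without WT replicate 1 (adjusted p = 0.178) or 2 (0.145), without MIF_1 replicate 1 (0.183) or 2 (0.133), and with upper-quartile scaling (0.0691).

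NPQ1, which encodes VDE, was the least abundant of the 8, at the 72.5 percentile. It had 30.0 and 35.6 CPM in MIF_1, 28.4 and 38.96 CPM in MIF_3, and 35.4 and 46.0 CPM in WT. The groups overlapped. Its log2 difference was -0.31 ± 0.18 (SE) in MIF_1 (edgeR adjusted p = 0.277, 95% interval -0.71 to 0.09) and -0.27 ± 0.18 in MIF_3 (adjusted p = 0.369, interval -0.67 to 0.13), so a fall as large as that of LIL3:2 in either set lay within the interval of NPQ1 for that set. NPQ1 shares 464 exonic bases with KN (AT1G08560) on the opposite strand, which fell by 0.49 in MIF_1 (edgeR adjusted p = 0.0126) and by 0.51 in MIF_3 (adjusted p = 0.0130). The part of KN reads in the NPQ1 counts was not tested.

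**Figure D3:**
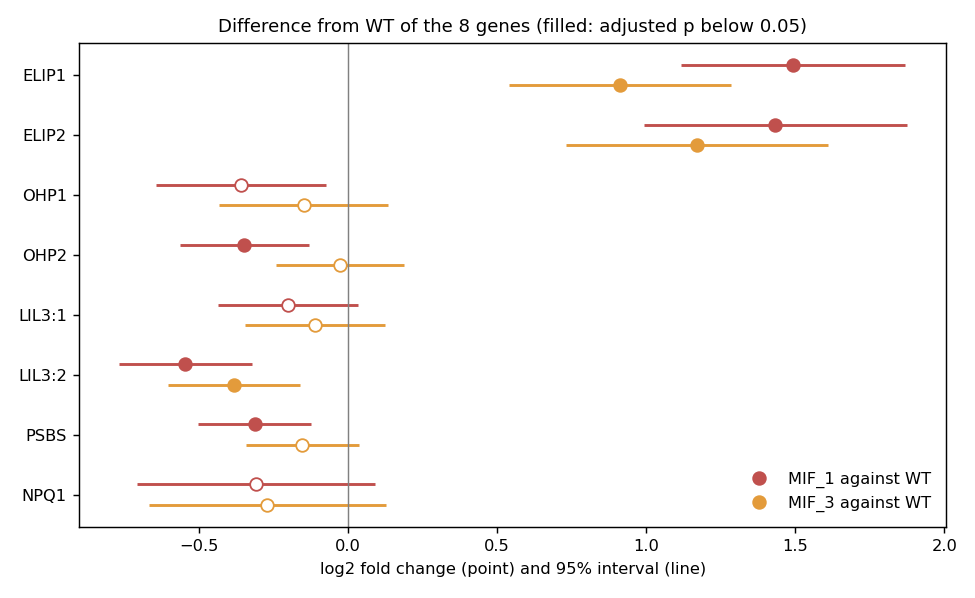
Log2 fold change against WT of the 8 genes in MIF_1 and MIF_3, with 95% intervals as lines, filled where the edgeR adjusted p is below 0.05. ELIP1 (1.49 and 0.91) and ELIP2 (1.43 and 1.17) lie to the right of 0 in both sets, and the 6 others lie between -0.55 and -0.03.

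The order of the genes by level differed between the groups. Per kb of exon, the level of PSBS was 973 ± 26.0 CPM in MIF_1, 1087 ± 26.4 CPM in MIF_3 and 1209 ± 10.7 CPM in WT (SD, n = 2), the highest of the 8 in each group. In WT it was followed by LIL3:2 (245 ± 8.82 CPM per kb), OHP1 (226 ± 31.7), OHP2 (178 ± 4.58), LIL3:1 (137 ± 0.748), ELIP2 (104 ± 6.85), ELIP1 (99.1 ± 0.668) and NPQ1 (15.8 ± 2.90). LIL3:2 and OHP1 overlapped there, as did ELIP2 and ELIP1, and the other neighbours in that order did not. The ELIPs thus had ranks 6 and 7 of 8 in WT.

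In MIF_1 the ELIPs stood directly under PSBS, at 280.2 ± 16.97 CPM per kb for ELIP2 and 279 ± 25.8 for ELIP1 (SD, n = 2), with overlapping ranges. OHP1 (176 ± 15.4), LIL3:2 (168 ± 5.81), OHP2 (139.8 ± 9.99), LIL3:1 (119 ± 13.9) and NPQ1 (12.7 ± 1.54) followed, and of these OHP1 and LIL3:2 overlapped. In MIF_3 the level per kb was 234 ± 82.3 CPM for ELIP2, 204 ± 19.1 for OHP1, 188 ± 16.6 for LIL3:2, 186 ± 52.4 for ELIP1 and 175 ± 1.31 for OHP2. Each overlapped its neighbour in this order, while both OHP1 and LIL3:2 lay wholly above OHP2. LIL3:1 (127 ± 4.90) and NPQ1 (13.04 ± 2.88) were the lowest in MIF_3 and overlapped no other member.

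**Figure D4:**
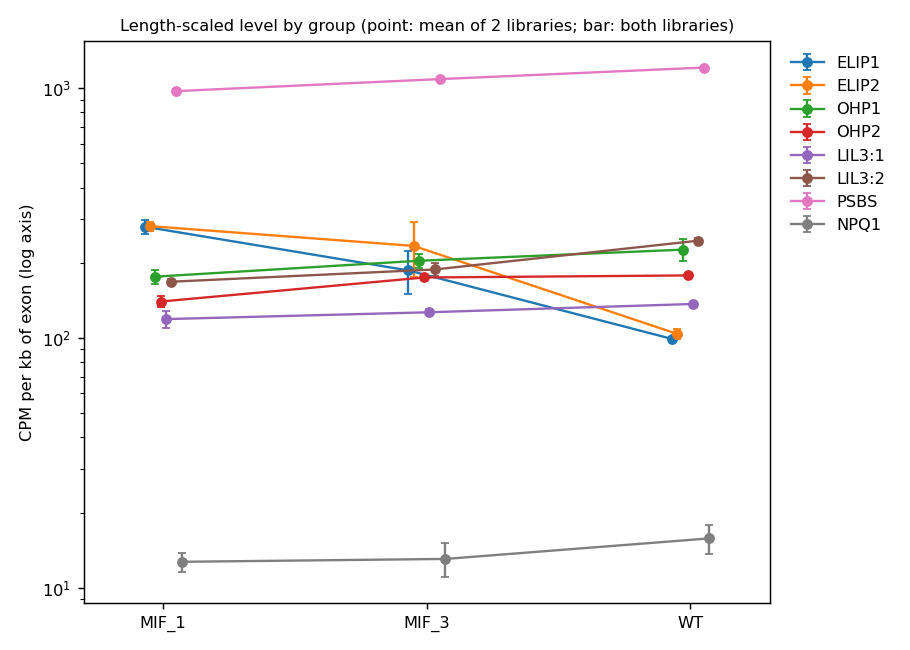
Mean level in CPM per kb of exon (log axis) of the 8 genes in MIF_1, MIF_3 and WT, with bars from the lower to the higher library. ELIP1 and ELIP2 lie below OHP1, OHP2 and both LIL3 genes in WT (ELIP1 at 99.1 and ELIP2 at 104 CPM per kb) and above them in MIF_1 (ELIP1 at 279 and ELIP2 at 280.2).

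The 2 transgenic sets were compared directly, which asks whether the members respond differently in MIF_3 and MIF_1. Of the 8 genes, 0 passed the edgeR test at the threshold, where 1.76% of all tested genes passed (0.475% higher and 1.29% lower in MIF_3). The libraries did not overlap for 4 genes that were higher in MIF_3 (OHP1, OHP2, LIL3:2 and PSBS) and 1 that was lower (ELIP1), beside 23.5% and 23.9% of all tested genes. At an unadjusted p below 0.05 there were 2, ELIP1 and OHP2. DESeq2 called 1 of the 8, ELIP1 (adjusted p = 0.0255). ELIP1 was lower in MIF_3 by a log2 difference of -0.58 ± 0.16 (SE, edgeR adjusted p = 0.121, 95% interval -0.95 to -0.21), and OHP2 was higher by 0.32 ± 0.10 (adjusted p = 0.143, interval 0.10 to 0.54).

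The direct comparison of the ELIPs depended on which MIF_3 library was used. Without MIF_3 replicate 1 the difference between MIF_3 and MIF_1 was -0.90 for ELIP1 and -0.68 for ELIP2. Without MIF_3 replicate 2, ELIP2 was at 0.056. Over the libraries left out in turn, ELIP1 ran from -0.90 to -0.32. When 1 MIF_3 library is left, the spread within MIF_3 does not enter the fit. With all libraries ELIP2 differed by -0.26 ± 0.19 (SE, adjusted p = 0.568, interval -0.69 to 0.17). Among the members other than the ELIPs and OHP2, the differences ran from 0.04 ± 0.18 for NPQ1 to 0.21 ± 0.13 for OHP1, with LIL3:1, LIL3:2 and PSBS between them. Their intervals were not narrow enough to show that the sets act alike.

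Profiles over the 6 libraries put the ELIPs apart from the other members. The root mean square (RMS) difference between log2 CPM profiles, each centred on its own mean, was 0.145 between ELIP1 and ELIP2, 0.0787 to 0.221 among pairs of the 6 others, and 0.731 to 0.886 between an ELIP and any of the 6. This is a description over 6 libraries in 3 groups. Among 17625 genes that averaged 1 or more in log2 CPM, the nearest to ELIP1 were GMI1 (RMS 0.0876) and AT3G47570 (0.116), and the nearest to ELIP2 were ARR6 (0.0807) and AT2G34340 (0.119). ELIP1 and ELIP2 were not among each other's 2 nearest genes.

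The other members had flatter profiles and closer neighbours. For OHP1 they were AT4G01915 (RMS 0.0262) and TTN10 (0.0282), for OHP2 AT2G20230 (0.0240) and AT5G42140 (0.0318), and for LIL3:1 PP2A-1 (0.0209) and AT5G52960 (0.0281). For LIL3:2 they were PGLCT (0.0256) and AT1G27210 (0.0271), for PSBS AT5G12150 and REF6 (both 0.0256), and for NPQ1 AT1G80180 (0.0358) and AT5G63060 (0.0519). No member of the 8 was among the 2 nearest of another.

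The other photoprotection genes were counted by list, and the shares below stand beside 9.85% of all tested genes that fell and 7.82% that rose in MIF_1, and 7.47% that fell and 5.84% that rose in MIF_3. Of the 3 other LHC-like genes, the stress-enhanced protein SEP2 fell by 0.62 in MIF_1 (edgeR adjusted p = 0.00349) and by 0.54 in MIF_3 (adjusted p = 0.00792), and its MIF_3 call was lost without WT replicate 1 (0.0504). SEP2 had 59.7 and 61.7 CPM in MIF_1, 67.7 and 60.5 CPM in MIF_3, and 94.4 and 92.0 CPM in WT. FC2, the ferrochelatase with an LHC-like helix, fell by 0.30 in MIF_1 (adjusted p = 0.0481) and by 0.44 in MIF_3 (adjusted p = 0.0132). Its MIF_1 call was lost when any of the 6 libraries was left out (adjusted p up to 0.201), and its MIF_3 call without WT replicate 1 (0.0562), WT replicate 2 (0.0808) or MIF_3 replicate 1 (0.0508). SEP1 was at -0.31 in MIF_1 (adjusted p = 0.0535) and -0.03 in MIF_3 (adjusted p = 0.882).

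Genes of carotenoid and xanthophyll synthesis belong to pathways that make the substrate of VDE and other pigments. Of 16 such genes, 6 fell (37.5%) and 0 rose in MIF_1. In MIF_3, 5 fell (31.2%) and 1 rose, and the medians were -0.24 in MIF_1 and -0.20 in MIF_3. ZEP, the zeaxanthin epoxidase that runs the xanthophyll cycle opposite to VDE, had 427 and 456 CPM in MIF_1, 551 and 514 CPM in MIF_3, and 798 and 864 CPM in WT. ZEP fell by 0.91 in MIF_1 (edgeR adjusted p = 3.37e-04) and by 0.64 in MIF_3 (adjusted p = 0.00225). LUT2, the lycopene epsilon-cyclase of lutein synthesis, fell by 0.74 (adjusted p = 0.00121) and by 0.77 (adjusted p = 9.88e-04) in the same sets. The one that rose in MIF_3 was NXD1, named after its values were seen, which acts in neoxanthin synthesis. It was at 0.60 there (adjusted p = 0.0355), and this call was lost when any of the 6 libraries was left out (adjusted p up to 0.161).

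Regulators of quenching and of electron flow gave 9 of 16 that fell in MIF_1 (56.2%) and 2 in MIF_3 (12.5%), and 0 that rose in either, with medians of -0.40 and -0.23. The MIF_3 share is close to the 13.3% of all tested genes that passed in either direction. The 2 in MIF_3 were STN7, the kinase of state transitions (-0.61 in MIF_1, adjusted p = 0.00247, and -0.49 in MIF_3, edgeR adjusted p = 0.00893), and SOQ1, which holds back a slow form of quenching (-0.60, adjusted p = 0.00244, and -0.38, adjusted p = 0.0238). In MIF_3 the STN7 call was lost without WT replicate 2 (0.0665), and the SOQ1 call without WT replicate 1 (0.0771), WT replicate 2 (0.136) or MIF_3 replicate 1 (0.0897). LQY1, a thylakoid protein of photosystem II repair, fell by 0.80 in MIF_1 (edgeR adjusted p = 0.00121) and was at -0.31 in MIF_3 (adjusted p = 0.0794).

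Of 7 genes of tocopherol synthesis, the lipid antioxidants of the thylakoid, 4 fell in MIF_1 (57.1%) and 3 in MIF_3 (42.9%), and 0 rose, with medians of -0.42 and -0.30. HPD, VTE1 and VTE4 fell in both, and VTE3 in MIF_1. The VTE1 call in MIF_3 was lost when WT replicate 1, WT replicate 2 or MIF_3 replicate 1 was left out (adjusted p of 0.0615, 0.0643 and 0.0628), and the VTE3 call without any one of the WT and MIF_1 libraries (0.0615 to 0.101). VTE4, the methyltransferase that makes alpha-tocopherol, had 26.1 and 25.1 CPM in MIF_1, 26.7 and 36.9 CPM in MIF_3, and 70.5 and 67.5 CPM in WT. VTE4 fell by 1.43 in MIF_1 (edgeR adjusted p = 3.46e-04) and by 1.12 in MIF_3 (adjusted p = 0.00128). HPD, the dioxygenase at the start of the pathway, fell by 0.77 (adjusted p = 0.00217) and by 0.81 (adjusted p = 0.00190).

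The partners of OHP and LIL3 proteins gave 8 of 10 tested genes that fell in MIF_1 (80%) and 4 in MIF_3 (40%), and 0 that rose, with medians of -0.49 and -0.30. The 4 in MIF_3 were cpSRP54, CHLP, CHLG and PORC. Each of these calls, in MIF_1 and in MIF_3, was lost when any one WT or MIF_1 library was left out (adjusted p of 0.0521 to 0.178). Those of cpSRP54, CHLG and PORC in MIF_3 were also lost without MIF_3 replicate 1 (0.138, 0.0862 and 0.105), and that of CHLG without MIF_3 replicate 2 (0.121). HCF244, the assembly factor that binds OHP1 and OHP2, fell by 0.56 in MIF_1 (edgeR adjusted p = 0.00474) and was at -0.30 in MIF_3 (adjusted p = 0.0773), and its MIF_1 call was lost without MIF_1 replicate 1 (0.0592). CHLP, the geranylgeranyl reductase that LIL3 stabilises, fell by 0.61 (adjusted p = 0.0112) and by 0.57 (adjusted p = 0.0199).

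Of 9 plastid genes of superoxide and peroxide removal, 6 fell (66.7%) and 1 rose in MIF_1, and 1 fell (11.1%) and 1 rose in MIF_3, with medians of -0.44 and -0.22. The one that rose in both sets was CSD2, the plastid copper/zinc superoxide dismutase, with 144 and 139 CPM in MIF_1, 303 and 266 CPM in MIF_3, and 30.9 and 29.5 CPM in WT. The log2 fold change of CSD2 was 2.23 in MIF_1 (edgeR adjusted p = 4.86e-06) and 3.24 in MIF_3 (adjusted p = 4.71e-07), larger in size than that of any of the 8 members in the same set. TAPX, the thylakoid ascorbate peroxidase, fell in both, by 0.76 in MIF_1 (adjusted p = 0.00229) and by 0.52 in MIF_3 (adjusted p = 0.0174). In MIF_3 the TAPX call was lost without WT replicate 1 (0.0625), WT replicate 2 (0.0879) or MIF_3 replicate 1 (0.0898).

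Regulators known to act on light-responsive plastid genes gave 5 of 14 that fell (35.7%) and 1 that rose in MIF_1, and 8 that fell (57.1%) and 0 that rose in MIF_3, with medians of -0.23 and -0.41. In MIF_1 the 5 were CRY1, RUP1, GLK1, GLK2 and SIG5. The CRY1 call there was lost without WT replicate 2 (adjusted p = 0.179) or MIF_1 replicate 1 or 2 (0.116 and 0.147), and the RUP1 call without WT replicate 1 (0.0895) or MIF_1 replicate 1 or 2 (0.0893 and 0.0930). SIG5, a plastid sigma factor induced by blue light and stress, had 34.7 and 33.6 CPM in MIF_1, 27.3 and 25.1 CPM in MIF_3, and 129 and 132 CPM in WT. SIG5 fell by 1.93 in MIF_1 (edgeR adjusted p = 7.89e-06) and by 2.31 in MIF_3 (adjusted p = 4.33e-06). GLK1, which activates antenna and chlorophyll genes, had 60.3 and 49.9 CPM in MIF_1, 47.6 and 54.4 CPM in MIF_3, and 136 and 143 CPM in WT, and it fell by 1.34 (adjusted p = 1.62e-04) and by 1.45 (adjusted p = 1.02e-04).

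HY5 and its homologue HYH are named because they are known to act on ELIP genes, and were chosen after their values were seen. HY5 had 15.2 and 15.9 CPM in MIF_1, 11.7 and 9.63 CPM in MIF_3, and 19.7 and 16.3 CPM in WT. HY5 was at -0.21 in MIF_1 (edgeR adjusted p = 0.405) and fell by 0.76 in MIF_3 (adjusted p = 0.0135), a call lost without WT replicate 1 (0.0882) or MIF_3 replicate 2 (0.0654). HYH, with 39.5 and 38.3 CPM in MIF_1, 23.0 and 20.6 CPM in MIF_3, and 30.1 and 28.4 CPM in WT, rose by 0.41 in MIF_1 (adjusted p = 0.0332) and fell by 0.43 in MIF_3 (adjusted p = 0.0369). The groups of HYH did not overlap. The call in MIF_1 was lost without any one of the MIF_1 and WT libraries (adjusted p up to 0.145), and that in MIF_3 without any one of the 6 (up to 0.180).

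**Figure D5:**
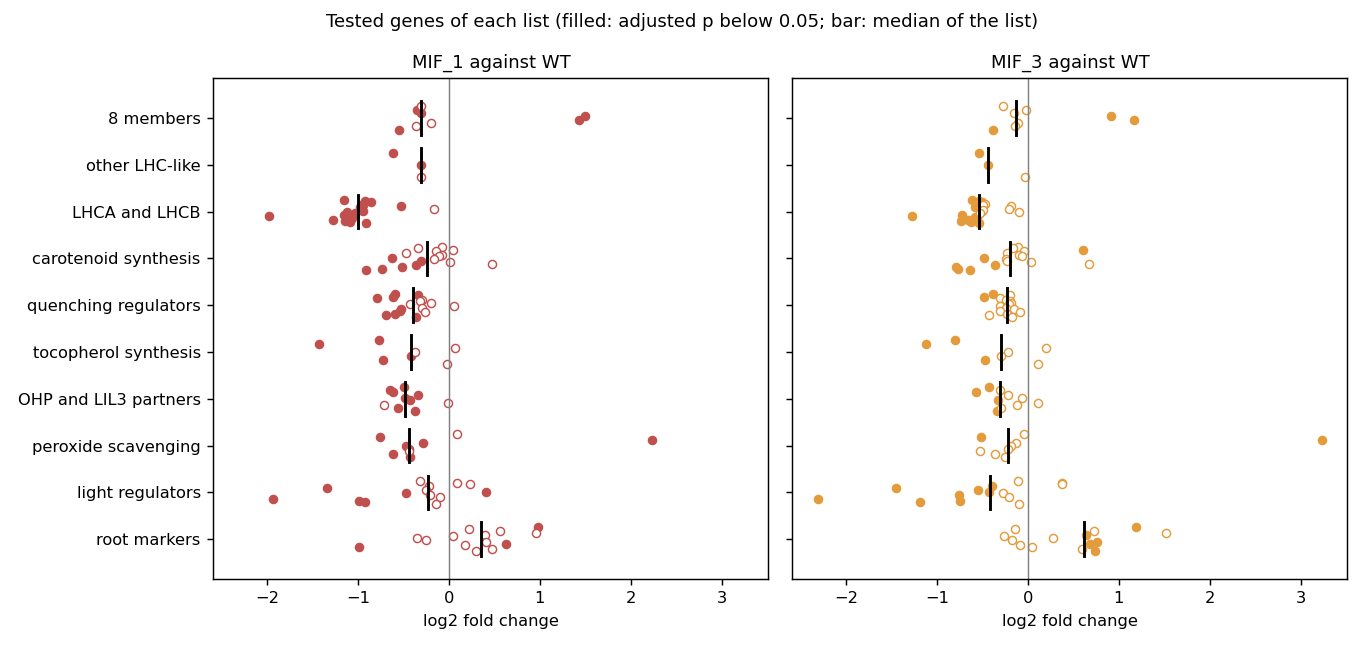
Log2 fold change against WT of every tested gene in each list, MIF_1 in one panel and MIF_3 in the other, filled where the edgeR adjusted p is below 0.05, with a bar at the median of the list. The ELIP points at 1.49 and 1.43 in MIF_1 lie right of 0, while the list medians lie left of it except for the root markers (0.35 in MIF_1 and 0.62 in MIF_3).

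Among the 14 root markers, 2 rose (14.3%) and 1 fell (7.14%) in MIF_1, and 5 rose (35.7%) and 0 fell in MIF_3. EXPA7 and XTH14 rose in both, PIN2, PRP3 and CASP1 in MIF_3, and TIP2;3 fell in MIF_1. The median was 0.35 in MIF_1 and 0.62 in MIF_3, while the summed level of the 14 in MIF_3 lay below WT. PYK10, a root beta-glucosidase, makes up most of that sum, and the 13 others summed to 215.6 and 212.7 CPM in MIF_1, 254.2 and 224.7 CPM in MIF_3, and 222.02 and 170.7 CPM in WT, so that without PYK10 both MIF_3 libraries lay above WT. EXPA7, an expansin of root hairs, rose by 0.98 in MIF_1 (edgeR adjusted p = 0.0268) and by 1.19 in MIF_3 (adjusted p = 0.0139). Its MIF_1 call was lost without WT replicate 2 (0.114), MIF_1 replicate 1 (0.0931) or MIF_1 replicate 2 (0.152), and that of XTH14 without the same libraries (0.0853, 0.0550 and 0.111). The fall of TIP2;3 was lost without WT replicate 1 (0.112) or MIF_1 replicate 1 (0.131). All 5 MIF_3 calls were lost without WT replicate 2 (0.0580 to 0.220), those of XTH14, PRP3, PIN2 and CASP1 also without MIF_3 replicate 1 (0.0593 to 0.188), those of PIN2 and CASP1 without MIF_1 replicate 1 or 2 (0.0533 to 0.0820), and that of CASP1 without MIF_3 replicate 2 (0.0521). The part of root tissue in the changes of the 8 genes was not tested.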

How the data were processed

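Poly(A) RNA of 6 whole-seedling libraries was compared, per the labels. The authors deposited whole-number read counts per locus, without normalization. Per the submitters' processing notes, fastp, STAR, HTSeq and the build TAIR10 were used. The sources used here give no tool versions, annotation release, strand setting or treatment of multi-mapped reads.

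Counts were tested with edgeR 4.0.16 (limma 3.58.1, R 4.3.3). Loci were kept by filterByExpr (minimum count 10, total 15), TMM factors were used, and one quasi-likelihood model covered all 6 libraries (3 residual degrees of freedom, prior 6.69, common dispersion 0.0174). P-values were adjusted over 20438 loci, with a threshold of 0.05. SE was derived from the fold change and its F statistic (|log2 fold change|/√F), and 95% intervals follow from it. CPM used TMM-scaled library sizes over the tested loci. Log2 CPM profiles used a prior count of 2. Levels per kb divide by the union of exons of all transcripts. Gene names, structures and sequences came from TAIR10.1 (RefSeq), where 32548 loci had a record. Coordinates are those of TAIR10.1, and the count table holds none.

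All 8 members were named, with up to 3 genes of each other list by smallest p when both sets were averaged against WT, and the 2 nearest profiles of each member. Outside this rule, and with their values known, NXD1, VTE3, cpSRP54, CHLG, HY5, HYH, CRY1, RUP1, PIN2, CASP1 and TIP2;3 were named. PYK10 and the loci that overlap members were named as well. The members and lists were chosen with earlier results of these data known. The alternatives comprised DESeq2 1.42.0, scaling by RLE or upper-quartile factors, dropping or tightening the low-count filter (mean count 50), organelle-encoded and rRNA loci removed, a replicate block, groups compared alone, a threshold of 0.01, and each library left out, where a group of 1 library is assumed to vary like the others. The tests were tested on 5 simulated data sets of 20438 genes. In each, 200 genes drawn at random over all expression levels were changed. A 1.5-fold change passed in 17.9% of cases in MIF_1 and 16.4% in MIF_3. For a 2-fold change these were 60.6% and 60%, and for a 4-fold change 88.8% and 87.6%. Far more genes passed in the data than were changed there, and the adjusted p depends on that number. These shares therefore cannot show how often such a change in the 8 genes would pass. Replicates differed by more than sampling noise in each group.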

Additional observations from a re-analysis of the deposited data

Results flagged for a closer look

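Of the genes named, CSD2 and HYH differed between MIF_3 and MIF_1 in a direct test of the difference. The log2 fold change of CSD2 in MIF_3 against MIF_1 was 1.00 (edgeR adjusted p = 0.00202), with 303 and 266 CPM in MIF_3 and 144 and 139 CPM in MIF_1. Without MIF_1 replicate 1 or 2 its adjusted p was 0.0726 or 0.0504. The log2 fold change of HYH in MIF_3 against MIF_1 was -0.84 (edgeR adjusted p = 0.00711), with 23.0 and 20.6 CPM in MIF_3 and 39.5 and 38.3 CPM in MIF_1, and without MIF_1 replicate 1 or 2 its adjusted p was 0.114 or 0.0778. Both directions held in every setting run. Groups of 2 libraries are too small for a test of outlying samples.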

How the results depend on the processing

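The rises of ELIP1 and ELIP2 against WT kept their direction and their call in every setting run. Where 1 library was left in a group, the spread within that group did not enter the call. Leaving out each library in turn gave log2 fold changes of 1.39 to 1.58 and 1.37 to 1.504 in MIF_1. For MIF_3 these were 0.59 to 1.18 and 0.76 to 1.496. The count of the 8 genes past the threshold in MIF_1, 5 in all, was 3 with upper-quartile factors and 3 at a threshold of 0.01, and 2 to 5 with a library left out. In MIF_3 it was 2 to 3, over the mean of both sets 2 to 4, and for MIF_3 against MIF_1 0 to 2 with a library left out, and for the last it was 1 with DESeq2 and 1 without a low-count filter. Over all genes the counts at 0.01 were 1575 in MIF_1 (3612 at 0.05), 1143 in MIF_3 (2720), 1865 over the mean (3822) and 101 for MIF_3 against MIF_1 (360), and the last was 775 with DESeq2 and 687 without a filter. With a library left out they were 1332 to 3947, 1575 to 2435, 2164 to 3843 and 20 to 506. With upper-quartile factors 1781 genes rose and 1776 fell in MIF_1 (1598 and 2014 with TMM), so that rises and falls were nearly even. In MIF_3, 1400 rose and 1275 fell (1194 and 1526 with TMM), so that the balance turned round. Over the mean of both sets 1868 rose and 1955 fell (1587 and 2235 with TMM), so that falls stayed more numerous. For single genes, directions turned round only for values that had not passed. In MIF_3 against WT with upper-quartile factors, OHP2 was at 0.019 and SEP1 at 0.015 on the log2 scale. With a library left out, OHP1 in MIF_3 ran from -0.28 to 0.0095 (without WT replicate 1), SEP1 in MIF_3 from -0.099 to 0.049 (without WT replicate 1), TIP2;3 in MIF_3 from -0.21 (without WT replicate 2, and -0.065 without MIF_3 replicate 1) to 0.36, and NXD1 in MIF_1 from -0.044 (without MIF_1 replicate 2) to 0.12. In MIF_3 against MIF_1, ELIP2 ran from -0.68 to 0.056 (without MIF_3 replicate 2), LIL3:1 from -0.022 (without MIF_1 replicate 1) to 0.21, and NPQ1 from -0.21 (without MIF_3 replicate 2, and -0.08 without MIF_1 replicate 1) to 0.25. PSBS over the mean passed with DESeq2 (adjusted p = 0.0259), RLE factors (0.0483) and no filter (0.0394), and the LIL3:2 call in MIF_3 was also lost when the groups were compared alone (0.0657). The cause was not tested. Deviations of same-numbered replicates had little in common (correlations -0.04, -0.04 and 0.04), which cannot show whether the libraries were paired. With the replicate block 4, 3, 3 and 0 of the 8 genes passed in the 4 comparisons, where OHP2 in MIF_1 no longer did (edgeR adjusted p = 0.0512). The mean of both sets was not fitted alone, since that is the same fit. With 2 libraries per group, small differences pass less often than large ones.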
